A study of Rattus norvegicus with 20 samples.

Results

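Kap, Miox, Spp2, Apcs and Cltrn are transcripts that kidney cortex held at high level and left ventricle held at trace level, and that were chosen by their readout in hearts, where libraries of rats given Maresin 1 held more of them than libraries of rats given vehicle. They are 5 of the 30560 genes measured, each found by its gene name in 1 row. The study took poly-A RNA from renal cortex and left ventricle of 10 hypertensive rats, all male and of genotype WT, with no strain named in the labels. Telemeters were implanted at 8 weeks of age, and all 10 rats, controls included, then ate a diet with 4% NaCl for 3 weeks. Over those weeks an osmotic minipump under the skin gave 5 rats vehicle (RB030 to RB034) and 5 rats Maresin 1 (MaR1, RB035 to RB039) at up to 1.3 µg/kg/day. Both organs of every animal were sequenced once, which makes 20 libraries, 5 animals in each of 4 groups.

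Kap encodes a secreted protein that proximal tubule cells of rodents make under the control of androgens. Miox encodes the enzyme that cleaves myo-inositol, the first step of its breakdown in renal tubules. Cltrn encodes collectrin, a membrane protein that carries amino acid transporters to the brush border of the proximal tubule. Spp2 encodes a secreted phosphoprotein that binds bone morphogenetic proteins, and Apcs encodes serum amyloid P component, a pentraxin of the plasma; both are made by the liver.

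The genes lie on different chromosomes, and none overlaps another gene in the deposited annotation, for which no build is named. Kap (ENSRNOG00000005858) spans 166674595 to 166677639 on chromosome 4, minus strand, and Miox (ENSRNOG00000008694) spans 120405031 to 120407537 on chromosome 7, plus strand. Spp2 (ENSRNOG00000053244) spans 89007175 to 89026688 on chromosome 9, plus strand. Apcs (ENSRNOG00000009086) spans 85373220 to 85374298 on chromosome 13, minus strand. Cltrn (ENSRNOG00000003960) spans 30361967 to 30395349 on chromosome X, minus strand. All 5 are protein coding and short, at 705 to 1262 bases of counted length.

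The promoters of the members were searched for shared letters, as a description. Their joint variation from heart to heart gives no ground for shared letters, since heart values chose the members. The 250 bases before each start site (RefSeq, GRCr8, 5 of 5 genes matched) were searched on both strands for the 6 bases GTTAAT. Kap, Miox and Cltrn held a match, which begins 147, 149 and 132 bases before the start. Windows of 60 bases around these matches are shown, 5′ to 3′ on the gene's strand, with each match in capitals (on the opposite strand for Miox and for the first of the 2 in Cltrn).
Kap, chr4:168409147-168409206, minus strand: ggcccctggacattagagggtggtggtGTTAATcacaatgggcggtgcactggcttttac
Miox, chr7:122284484-122284543, plus strand: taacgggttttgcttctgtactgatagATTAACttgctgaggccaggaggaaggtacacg
Cltrn, chrX:34027224-34027283, minus strand: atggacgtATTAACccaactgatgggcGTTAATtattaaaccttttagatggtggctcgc

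These 6 bases were present in 6.45% of 33469 promoters searched the same way, and the Cltrn promoter held them 2 times. Spp2 and Apcs held no match to the 6 bases in these 250 bases. The motif was picked after the sequences had been seen, and a match describes letters and not binding.

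Between 19383232 and 30342034 fragments per library fell in genes. Values are FPKM (fragments scaled by the authors to gene length and to a size per library), so levels can be compared between genes of a library. The library size used in this scaling was 0.812 to 0.983 times the fragments in genes for hearts and 1.05 to 1.28 times for kidneys; the sources used here do not give how that size was obtained. It enters each comparison of a heart with a kidney. Hearts had 24239346 to 30342034 fragments with vehicle and 21543513 to 25054197 with MaR1. The defining markers went with the tissue labels: 14 ventricular muscle genes summed to 21080 to 29677 FPKM in hearts and 66.5 to 103 FPKM in kidneys. Atrial transcripts also varied between hearts, with Myl7, the atrial myosin light chain, at 151 to 784 FPKM in RB031, RB033, RB034, RB035 and RB038 and at 0.163 to 1.65 FPKM in the other 5.

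In hearts, Kap was the most abundant of the 5. It stood at 4.91, 1.54, 1.13, 2.28 and 4.14 FPKM in vehicle animals RB030 to RB034, and at 3.85, 49.9, 26.7, 19.5 and 16.1 FPKM in MaR1 animals RB035 to RB039. The MaR1 hearts RB036 to RB039 were all above every vehicle heart, while RB035 lay among the vehicle hearts, so the groups overlapped. Group means were 2.80 ± 1.65 and 23.2 ± 17.1 FPKM, an 8.28-fold ratio of means and a difference of 2.61 ± 0.67 (SE) on the scale of log2(FPKM + 0.5), which understates changes of low genes. These numbers rest on 16 to 77 fragments of Kap per vehicle heart and 66 to 719 per MaR1 heart.

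Cltrn, the amino acid transport regulator, had the same 4 hearts at its top. Its vehicle hearts held 1.25, 0.104, 0.198, 0.452 and 0.345 FPKM (RB030 to RB034), and its MaR1 hearts held 0.228, 6.36, 4.60, 3.12 and 4.42 FPKM (RB035 to RB039). RB036 to RB039 again stood above all vehicle hearts, and RB035 lay below the vehicle mean. The means were 0.469 ± 0.455 and 3.75 ± 2.28 FPKM, 7.99-fold apart, with a log2 difference of 1.92 ± 0.63.

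Miox, the inositol oxygenase, differed less in ratio. It stood at 3.90, 0.671, 0.865, 1.65 and 2.60 FPKM in the vehicle hearts and at 3.20, 7.92, 5.30, 3.93 and 7.31 FPKM in the MaR1 hearts, in the same order of animals. Vehicle heart RB030 came just below MaR1 heart RB038 and above RB035, so the groups overlapped here too. The means were 1.94 ± 1.33 and 5.53 ± 2.06 FPKM, 2.86-fold apart, with a log2 difference of 1.41 ± 0.42.

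The secreted plasma proteins were the lowest of the 5 in hearts. Spp2 was at 0.171, 0.0830, 0, 0.160 and 0.0830 FPKM in vehicle hearts and at 0.431, 1.49, 1.38, 1.60 and 1.40 FPKM in MaR1 hearts. All MaR1 hearts lay above all vehicle hearts, with RB035 the lowest of the MaR1 hearts. The counts behind these values were 0 to 5 fragments per vehicle heart and 11 to 35 per MaR1 heart, and the 0 in RB032 allows up to 0.143 FPKM (3 fragments). Its ratio of means was 12.7 and its log2 difference 1.51 ± 0.23.

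Apcs was at 0.325, 0.0450, 0.258, 0.0346 and 0 FPKM in vehicle hearts and at 0.254, 0.910, 1.14, 0.496 and 0.523 FPKM in MaR1 hearts. RB035 fell among the vehicle hearts once more, and the other MaR1 hearts exceeded all of them. With 0 to 7 fragments per vehicle heart and 6 to 22 per MaR1 heart, single values are uncertain by counting alone: RB037 held 1.14 FPKM with a 95% exact Poisson interval of 0.712 to 1.72, and RB030 held 0.325 FPKM with 0.131 to 0.670. The 0 in RB034 allows up to 0.135 FPKM (3 fragments, the limit also used for Spp2). Its ratio of means was 5.01 and its log2 difference 0.86 ± 0.25. Such intervals cover counting error and no other source.

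**Figure D1:**
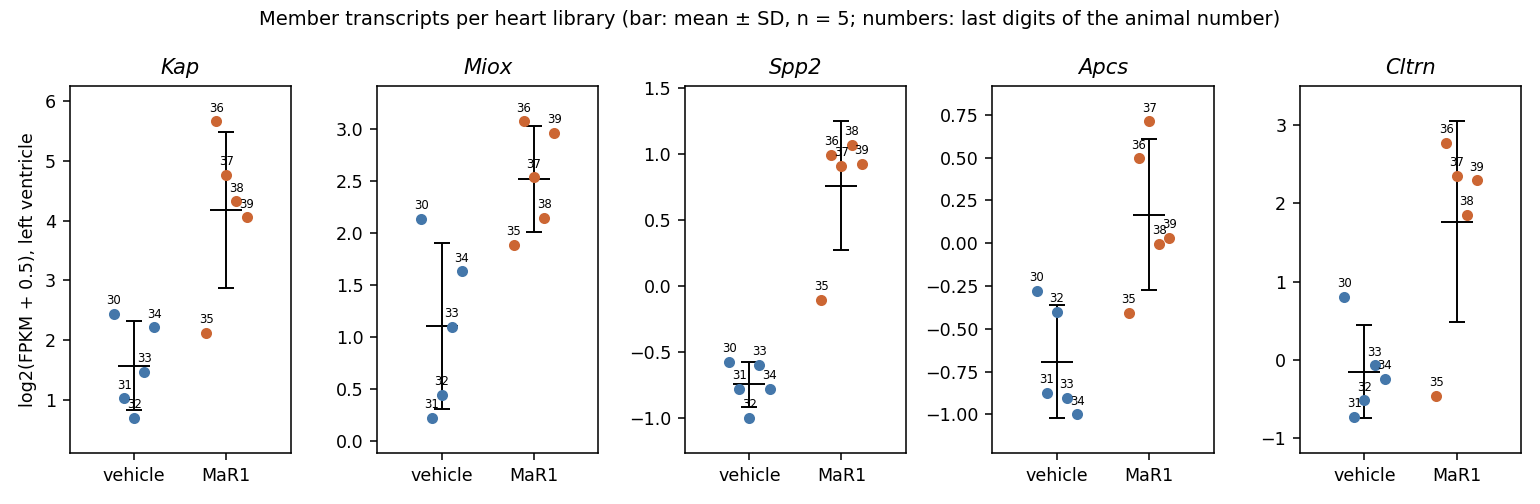
Level of each member in the 10 hearts, as log2(FPKM + 0.5) on the vertical axis, with vehicle in blue, MaR1 in orange, a point per library and the mean ± SD (n = 5). MaR1 hearts RB036 to RB039 stand above every vehicle heart for all 5 genes, while MaR1 heart RB035 stands among the vehicle hearts for Kap, Miox, Apcs and Cltrn.

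So 1 of 5 members, Spp2, had groups that did not overlap, where 0.462% of 16453 genes with a heart mean of at least 0.1 FPKM had all MaR1 hearts above all vehicle hearts. Nothing can be read from that count, since the heart contrast chose the members. For the same reason no test of them is given. In the heart fit of all genes (limma, adjusted p under 0.05) 0 of 12237 genes (0%) passed, with 563 at an unadjusted p under 0.05, and limma voom passed 0 with 550; Kap, Miox and Cltrn were among the genes tested, while Spp2 and Apcs lay below the filter of a mean of 1 FPKM.

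Among vehicle hearts, RB030 was the highest for all 5 members. RB036 was the highest heart for Kap, Miox and Cltrn, RB038 for Spp2 and RB037 for Apcs. The order of the members was Kap, Miox, Cltrn, then Apcs and Spp2 in vehicle hearts, and Kap, Miox, Cltrn, Spp2, Apcs in MaR1 hearts. Neighbours in that order whose means differed by less than the larger of their SDs were, in vehicle hearts, Kap and Miox, Cltrn and Apcs, and Apcs and Spp2, and, in MaR1 hearts, Miox and Cltrn. Over the 10 hearts, the 10 pairs of members had Pearson correlations of 0.747 to 0.958 on the log2 scale, as a description: the pairs share libraries, and choosing genes that differ between the same groups raises such values. Of the hearts with Kap above every vehicle heart, RB036, RB037 and RB039 had low Myl7, and RB038 alone had high Myl7. RB035, the MaR1 heart with the lowest Kap, had the highest Myl7 of the MaR1 hearts (316 FPKM). A relation of Kap to Myl7 was not tested. Among hearts with Myl7 up to 1.65 FPKM, Kap was at 4.91 and 1.13 FPKM with vehicle and at 49.9, 26.7 and 16.1 FPKM with MaR1, and among hearts with Myl7 at 151 FPKM or more it was at 1.54, 2.28 and 4.14 against 3.85 and 19.5 FPKM.

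In kidneys, every member stood orders of magnitude above its heart level. Kap was at 1055, 3163, 2736, 2270 and 3578 FPKM in vehicle kidneys RB030 to RB034 and at 3854, 3696, 3616, 4611 and 1982 FPKM in MaR1 kidneys RB035 to RB039. Of these MaR1 kidneys 4 were above every vehicle kidney and RB039 was below all but RB030. Miox was at 1038 to 2376 FPKM with vehicle and 1623 to 1838 FPKM with MaR1, Cltrn at 661 to 885 and 488 to 1001 FPKM, Spp2 at 217 to 349 and 145 to 398 FPKM, and Apcs at 117 to 160 and 54.9 to 153 FPKM. By group means the members had 1 order in kidneys of both groups, Kap, Miox, Cltrn, Spp2, Apcs, with Kap and Miox in vehicle kidneys within 1 SD of each other.

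Each heart was set against the kidney of the same animal. Kap in hearts amounted to 0.466, 0.0488, 0.0414, 0.101 and 0.116% of the own kidney in vehicle animals RB030 to RB034. In MaR1 animals RB035 to RB039 it was 0.0998, 1.35, 0.739, 0.423 and 0.812%. The highest share belonged to RB036. RB030 was the highest vehicle animal and had the lowest Kap kidney of 10, at 1055 FPKM, and against the mean of all kidneys its heart stood at 0.161%. Mean shares were 0.154 ± 0.177% with vehicle and 0.685 ± 0.468% with MaR1, and the vehicle mean was 0.0766% without RB030 and 0.0917% against the mean of all kidneys. With fragments scaled to their sum per library, an alternative chosen after seeing the data, the means were 0.117 and 0.520%.

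The other members had mean shares of the own kidney of 0.134 ± 0.140 and 0.316 ± 0.110% for Miox, 0.0644 ± 0.0713 and 0.558 ± 0.352% for Cltrn, 0.0375 ± 0.0298 and 0.630 ± 0.374% for Spp2, and 0.0882 ± 0.0965 and 0.889 ± 0.726% for Apcs (vehicle and MaR1, SD, n = 5). Without RB030 the vehicle means were 0.0738% for Miox, 0.0333% for Cltrn and 0.0552% for Apcs, and against the mean of all kidneys the MaR1 mean of Apcs was 0.571%. For each of the 5 members the highest heart and the highest kidney came from different animals. The kidneys of RB037 and RB038 were the lowest of 10 for Spp2 (157 and 145 FPKM), Apcs (54.9 and 57.3 FPKM) and Cltrn (488 and 540 FPKM), while the hearts of these animals were among the highest 4 for all 3 genes. MaR1 animal RB035, whose heart held 3.85 FPKM of Kap, had the second highest kidney level, 3854 FPKM.

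Within a heart, the shares of the members differed. This is a description, since heart values chose the members, and the intervals cover counting error of the heart fragments alone. In RB038, Spp2 was at 1.11% of the own kidney (95% exact Poisson interval 0.771 to 1.54%), Cltrn at 0.578% (0.460 to 0.718%), Kap at 0.423% (0.375 to 0.475%) and Miox at 0.225% (0.180 to 0.278%). Spp2 stood highest there and Miox lowest of these 4, and Apcs was at 0.866% (0.415 to 1.59%). The place of Spp2 depends on the denominator. Against the mean of all kidneys, Kap was at 0.638% in RB038, Spp2 at 0.608%, Cltrn at 0.419% and Miox at 0.219%. In RB036 it was Kap that stood highest, at 1.35% (1.25 to 1.45%), with Miox at 0.431% (0.368 to 0.501%). RB039 was more even, with Miox at 0.415%, Cltrn at 0.441%, Spp2 at 0.352% and Apcs at 0.341%, and Kap at 0.812%.

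The ratio of Kap to Miox, which restates the values above, was 1.02 to 1.62 in vehicle kidneys, 1.12 to 2.64 in MaR1 kidneys and 1.26 to 2.30 in vehicle hearts. In MaR1 hearts it ran from 1.20 in RB035 to 6.31 in RB036, and RB036, RB037 and RB038 (6.31, 5.04 and 4.96) lay above every kidney. The ratio of Spp2 to Miox reached 0.407 in heart RB038, where its own kidney had 0.0829 and no kidney exceeded 0.226.

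**Figure D2:**
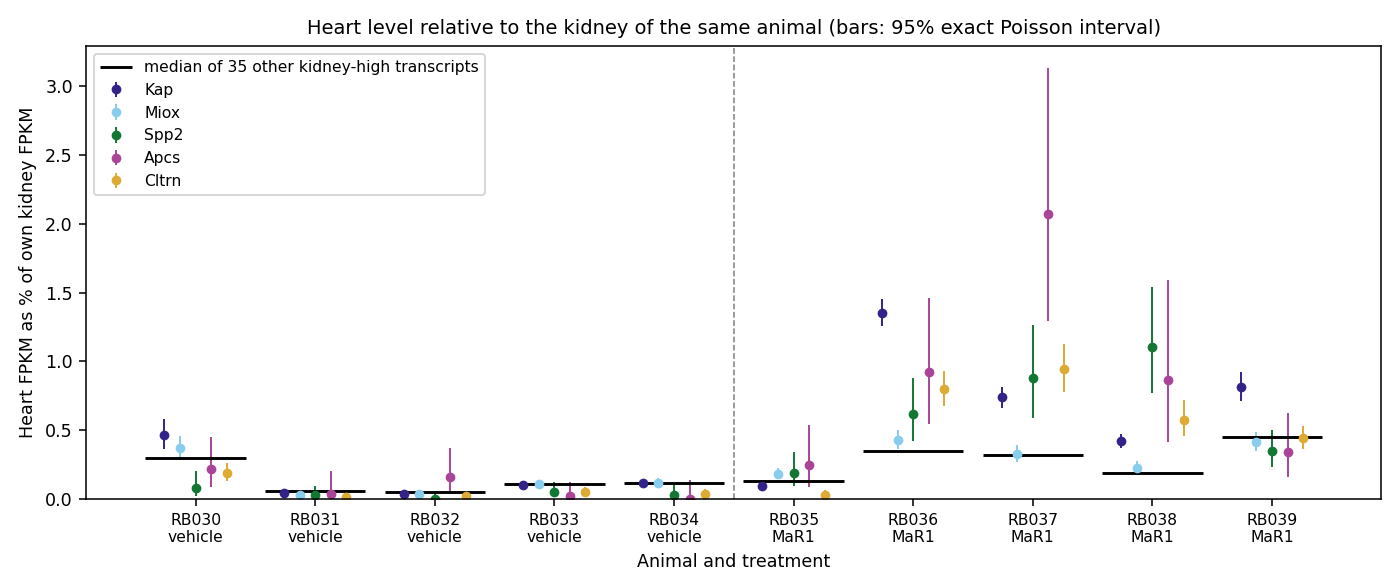
Heart FPKM of each member as a percent of the FPKM in the kidney of the same animal, with 95% exact Poisson intervals of the heart fragments; black lines mark the median over 35 other kidney-high transcripts. In RB036, RB037 and RB038 Kap, Spp2, Apcs and Cltrn lie above the line, while Miox lies near it, at 0.431, 0.327 and 0.225%.

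To see whether the members differ from other renal transcripts in hearts, every transcript was taken whose kidney mean reached 200 FPKM and whose heart mean was no more than 1% of that. They number 39, and 35 are left without Kap, Miox, Spp2 and Cltrn; Apcs misses the kidney level. The median share of the own kidney over these 35 was 0.301, 0.0602, 0.0517, 0.111 and 0.119% in vehicle hearts RB030 to RB034 and 0.136, 0.348, 0.319, 0.192 and 0.448% in MaR1 hearts RB035 to RB039. RB030 and RB035 thus take the same places as with the members: RB030 is the highest vehicle heart and RB035 the lowest MaR1 heart.

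The mean share was higher in MaR1 hearts for 28 of the 35, with a median ratio of 1.98, and for 34 of the 35 against the mean of all kidneys, with a median ratio of 2.05. Spp2, Cltrn and Kap had the 3 highest ratios of the 39 under both denominators, 12.7, 7.99 and 8.28 against the mean of all kidneys. On that scale a locus without a symbol came next, at 4.53. These members were picked for that ratio, so their place is no finding. Miox, with 2.86, ranked 16 of 39 on that scale. With the own kidney as denominator, the share of Miox in RB036 was 1.24 times the median of the 35 in that heart, where Kap was at 3.88 times. In RB038 Miox was at 1.17 times, where Spp2 was at 5.76 times. Against the mean of all kidneys these multiples were 1.16, 4.31, 1.37 and 3.82. In RB039, with the own kidney, Spp2, Apcs and Cltrn were at 0.785, 0.760 and 0.984 times, Miox at 0.925 times and Kap at 1.81 times.

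The transcripts of highest share over all hearts were Gclc (glutamate-cysteine ligase), Hpd (a tyrosine breakdown enzyme), Napsa (an aspartic protease), Ass1 (argininosuccinate synthase) and Ggt1 (a brush border peptidase). Those of lowest share were Slc22a6 (an organic anion transporter), Slc34a1 (the sodium-phosphate cotransporter), Slc13a3 (a dicarboxylate transporter), Ca12 (a carbonic anhydrase) and Naglt1 (a glucose transporter). Of the 35, Slc7a13, an amino acid transporter, had all MaR1 hearts above all vehicle hearts, as Spp2 did. Umod, the secreted protein of the thick ascending limb, averaged 1.04 ± 1.14 FPKM in vehicle hearts and 1.38 ± 1.07 FPKM in MaR1 hearts, and its mean own-kidney share was 0.167 and 0.139%. In the other direction the trace was smaller: 31 transcripts with at least 200 FPKM over the hearts and at most 1% of it over the kidneys had a median share of 0.00439 to 0.0176% in the 10 kidneys.

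**Figure D3:**
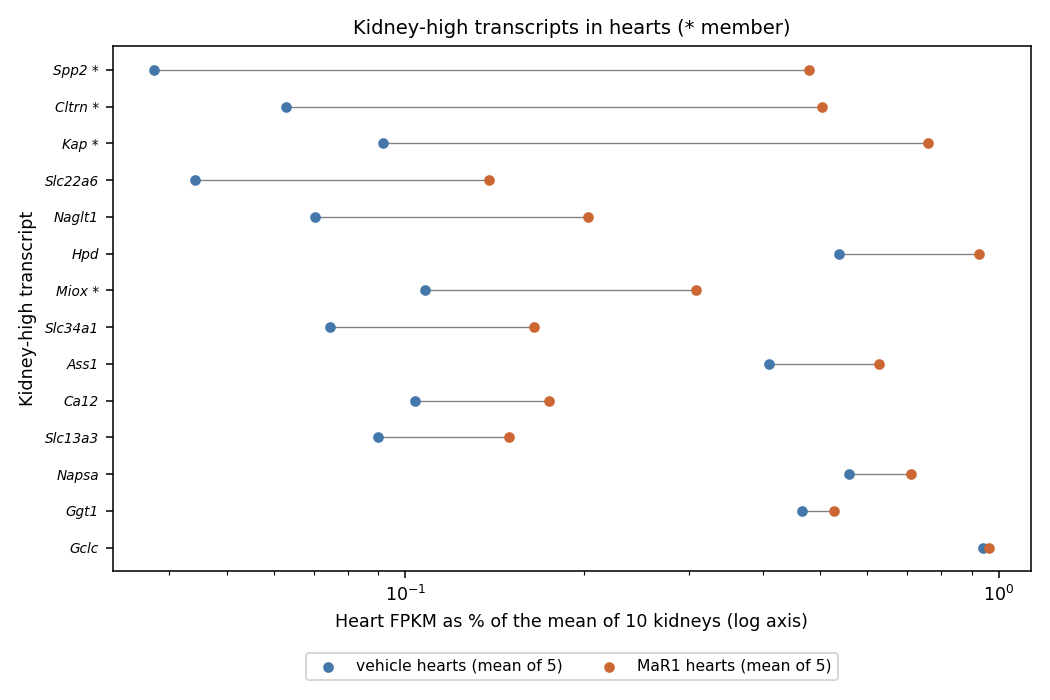
Mean heart level of 14 kidney-high transcripts (4 members and the 5 highest and 5 lowest by heart share) as a percent of the mean of 10 kidneys (log axis), vehicle in blue and MaR1 in orange, in order of the MaR1 over vehicle ratio of own-kidney shares; members carry a star. Spp2, Cltrn and Kap span the widest ratios, 12.7, 7.99 and 8.28, and Miox spans 2.86.

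Marker lists of other cell types were read in the same hearts. Of 30 matched proximal tubule genes, 13 passed the filter in hearts, 10 higher and 3 lower with MaR1, with a median log2 difference of 0.15 against 0.01 over all genes tested; 0 passed an adjusted p of 0.05 (limma), and 3 were higher at an unadjusted p under 0.05. Their summed level was 39.4 to 55.9 FPKM in vehicle hearts and 44.0 to 86.6 FPKM in MaR1 hearts. Slc34a1 averaged 0.947 ± 0.745 and 2.09 ± 1.59 FPKM in hearts. Others of the list had near means in both groups of hearts: Slc3a1, the subunit shared by cystine transporters, averaged 13.7 ± 2.83 and 12.4 ± 2.67 FPKM, and Dpep1, a brush border dipeptidase, 8.53 ± 1.09 and 8.10 ± 1.48 FPKM.

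Since Spp2 and Apcs are also liver products, 24 matched plasma protein genes of hepatocytes were examined. They summed to 67.9 to 98.9 FPKM in vehicle hearts and 73.2 to 96.8 FPKM in MaR1 hearts, mostly from Tf, Vtn and Ttr, which each heart held. Alb, the albumin gene, was at 0, 0.367, 0.172, 5.13 and 0.701 FPKM in vehicle hearts and at 1.32, 0, 6.28, 0.938 and 1.73 FPKM in MaR1 hearts. Apoa1 averaged 0.330 ± 0.288 and 0.318 ± 0.290 FPKM. Of these plasma protein genes, 5 passed the filter in hearts, 4 higher and 1 lower with MaR1 (median log2 difference 0.06), with 0 called (limma). The 11 collecting duct genes summed to 4.91 to 9.26 FPKM over all hearts, with Avpr2 at 0 in every heart and kidney, and Slc4a1, which red blood cells also express, making up most of it. The 7 podocyte genes summed to 109.8 to 137.9 FPKM in vehicle hearts and 119.0 to 156 FPKM in MaR1 hearts, mostly from Clic5 and Podxl; all 5 tested were higher with MaR1 (median log2 difference 0.10), 1 at an unadjusted p under 0.05 and 0 at an adjusted p under 0.05 (limma). The 3 tested genes of the thick ascending limb were higher too (median 0.20) and the 5 tested atrial genes lower (median -1.82), with 0 called (limma). The part of kidney-derived RNA in the members' heart levels was not tested.

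Partners of the members in their pathways were read next. Of 18 matched genes of their pathways, 10 passed the filter, 5 higher and 5 lower with MaR1 (median -0.01 against 0.01 over all genes tested), and 0 passed the adjusted threshold (limma), with 1 higher at an unadjusted p under 0.05. Downstream of Miox in glucuronate breakdown, Akr1a1 averaged 140.3 ± 12.7 and 140.6 ± 7.48 FPKM, Cryl1 13.6 ± 1.43 and 13.4 ± 2.50 FPKM and Xylb 1.87 ± 0.123 and 1.82 ± 0.340 FPKM in hearts. Isyna1, which makes inositol, averaged 20.2 ± 1.81 and 23.4 ± 2.42 FPKM. The transporters that collectrin escorts were low in hearts: Slc6a19 averaged 0.0592 ± 0.0820 and 0.108 ± 0.0495 FPKM, and Slc6a18 0.240 ± 0.242 and 0.417 ± 0.372 FPKM. Bmp2, a ligand that Spp2 protein can bind, averaged 1.60 ± 0.360 and 2.04 ± 1.03 FPKM.

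The genes most like Kap over the 10 hearts, by Pearson correlation of log2 levels among 11167 named genes, were Cltrn (0.958), Tcf15, a transcription factor (0.943), Hao2, a peroxisomal hydroxyacid oxidase of kidney and liver (0.938), Ehd1, an ATPase of endocytic recycling (0.930), and Dbndd2 (0.929). Among the 5 most like Miox were Hao2 (0.968), Med8, a Mediator subunit (0.957), Trir (0.940) and Ehd1 (0.927). Both rankings mix renal transcripts with genes at ordinary heart level. Hao2 averaged 2.75 ± 1.68 and 9.60 ± 4.76 FPKM in hearts and 2907 FPKM over the kidneys. Ehd1 averaged 103 ± 7.36 and 120 ± 6.98 FPKM in hearts, and Tcf15 38.0 ± 3.15 and 52.2 ± 11.3 FPKM.

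The kidney contrast was not used to choose the members, so it was tested. None of the 5 passed, nor did another gene. Of 12446 genes limma passed 0 (0%), where 840 had an unadjusted p under 0.05, and limma voom passed 0, where 842 did. A model of both organs called 6 genes with the animal as replicate block and 7 without the block, none of them a member.

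In kidneys the estimates lay on both sides of 0. Kap had means of 2560 ± 972 FPKM (vehicle) and 3552 ± 962 FPKM (MaR1), a log2 difference of 0.53 ± 0.33 (95% interval -0.20 to 1.27, limma adjusted p = 0.812). Miox was at 1849 ± 555 and 1743 ± 77.3 FPKM (log2 difference -0.02, interval -0.49 to 0.44, limma adjusted p = 0.994). Cltrn averaged 780 ± 104 and 709 ± 207 FPKM (-0.17, interval -0.60 to 0.25, limma adjusted p = 0.899).

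Spp2 and Apcs had lower means with MaR1 in kidneys, opposite to hearts. Spp2 stood at 217, 302, 349, 301 and 298 FPKM in vehicle kidneys RB030 to RB034 and at 226, 240, 157, 145 and 398 FPKM in MaR1 kidneys RB035 to RB039. MaR1 kidney RB039 was the highest of 10 while RB037 and RB038 were the lowest. The log2 difference was -0.41 ± 0.25 (interval -0.96 to 0.14, limma adjusted p = 0.807). Apcs stood at 147, 122, 160, 150.0 and 117 FPKM in vehicle kidneys and at 103, 98.5, 54.9, 57.3 and 153 FPKM in MaR1 kidneys. Its MaR1 kidneys were below all vehicle kidneys except RB039, which was the second highest of all. Its log2 difference was -0.67 ± 0.26 (interval -1.23 to -0.10), with an unadjusted p of 0.0247 that did not pass over all genes (limma adjusted p = 0.714).

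Marker lists were also read in the kidneys. Proximal tubule genes were lower with MaR1 in 24 of 30 (median -0.27 against 0.00 over all genes tested) and podocyte genes in 7 of 7 (median -0.41), while thick ascending limb genes were higher in 8 of 8 (median 0.52) and the 5 tested urothelium genes in 5 of 5 (median 2.15). The adipocyte list had 6 of 7 tested genes higher (median 1.57). For some of these genes the MaR1 kidneys differed widely among themselves. Fabp4 averaged 41.8 ± 72.7 FPKM and Adipoq 29.3 ± 50.8 FPKM there, with SDs above the means, though not every gene of the list did so. Urothelium genes summed to 0.432 to 4.87 FPKM in vehicle kidneys and reached 90.6 FPKM in RB039, the highest kidney for Spp2 and Cltrn. Next came RB038 with 33.9 FPKM, and that kidney was the lowest for Spp2 (145 FPKM). Thick ascending limb genes summed to 686 to 1462 FPKM in vehicle kidneys and to 2184 and 2103 FPKM in RB037 and RB038, the lowest kidneys for Spp2, Apcs and Cltrn. No gene of these lists passed the adjusted threshold (limma). Whether differences in the cells sampled took part in the members' kidney values was not tested, and in whole tissue fewer cells of a type and less RNA per cell cannot be told apart. Of the 15 pathway genes tested in kidneys, 6 were higher and 9 lower, and 0 passed; Slc7a9, the cystine transporter subunit, had the smallest p (168 ± 12.5 and 128 ± 40.7 FPKM, log2 difference -0.44 ± 0.19, limma adjusted p = 0.721).

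**Figure D4:**
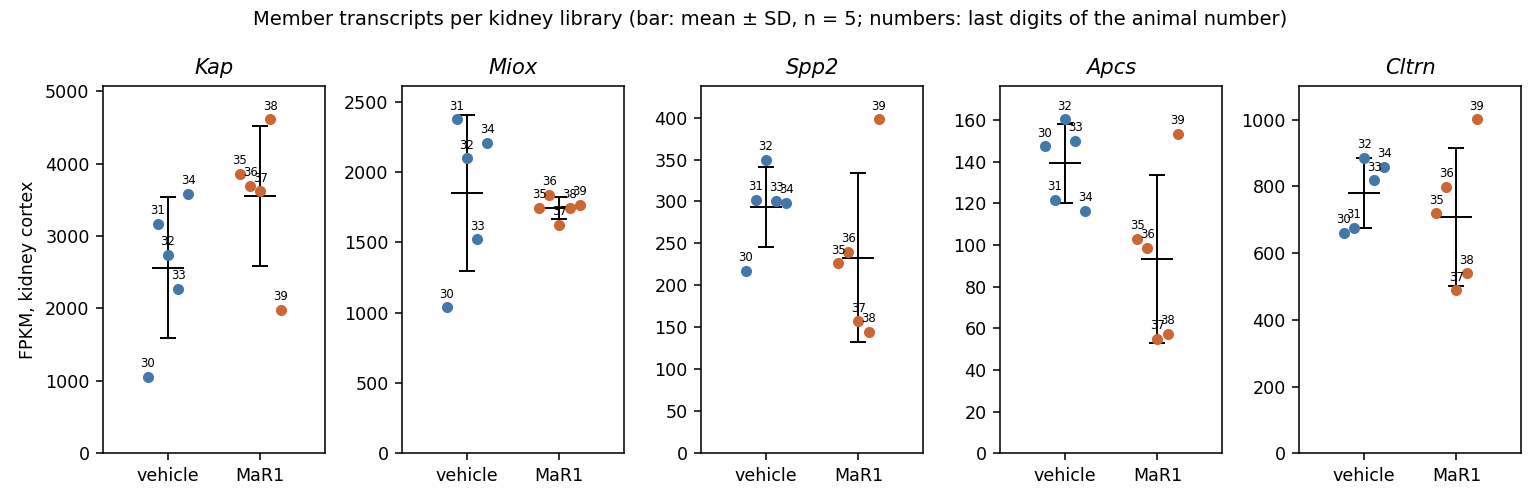
FPKM of each member in the 10 kidneys, vehicle in blue and MaR1 in orange, with a point per library, the mean ± SD (n = 5) and axes from 0. The groups overlap for all 5 genes, and the Apcs kidneys of MaR1 animals RB037 and RB038 (54.9 and 57.3 FPKM) are the lowest of 10.

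Spp2, Apcs and Cltrn varied together from kidney to kidney. Over the 10 kidneys and 10 pairs of members, Spp2 and Cltrn had a Pearson r of 0.919 (permutation p = 0.00043, adjusted p = 0.0043 over the 10 pairs) and a Spearman rho of 0.855 (permutation p = 0.00261, adjusted p = 0.0235). Without the kidneys farthest from the median of Spp2 (RB037 and RB038) r was 0.788. Spp2 and Apcs had an r of 0.879 (permutation p = 0.00167, adjusted p = 0.00835) and a rho of 0.818 (permutation p = 0.00585, adjusted p = 0.0235), with r at 0.575 without the same kidneys. Apcs and Cltrn had an r of 0.828 (permutation p = 0.00423, adjusted p = 0.0141) and a rho of 0.745 (permutation p = 0.0171, adjusted p = 0.0427), but r was 0.349 without RB037 and RB038, so that relation rests on those kidneys. After group means were removed the 3 correlations were 0.925, 0.854 and 0.871. How often pairs of other genes reach such correlations over the same 10 kidneys was not tested.

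Kap went against Apcs from kidney to kidney, with an r of -0.66 (permutation p = 0.0379, adjusted p = 0.0834) and a rho of -0.81 (permutation p = 0.00705, adjusted p = 0.0235), r at -0.78 without RB030 and RB039, and r at -0.54 with group means removed. Kap and Miox had an r of 0.687 (permutation p = 0.0417, adjusted p = 0.0834) and a rho of 0.188, and r was 0.0409 without RB030 and RB039, so it rests on those kidneys; with group means removed r was 0.789. The other 5 pairs had adjusted p-values of 0.479 to 0.908 for r. In hearts, by contrast, all 10 pairs had positive values, as given above, though that difference was not tested.

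**Figure D5:**
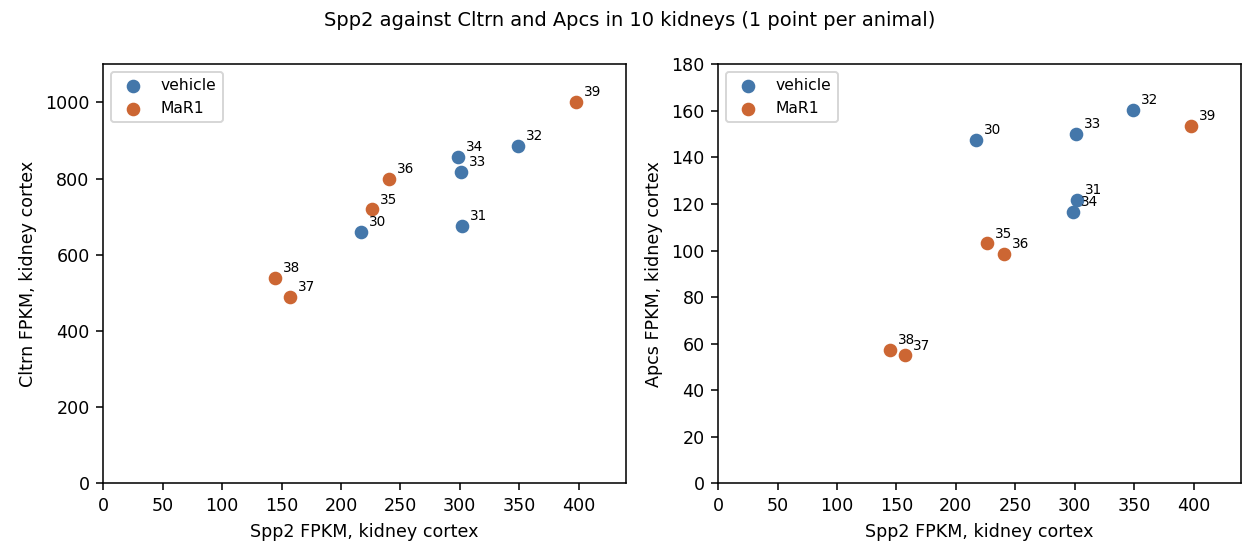
Kidney FPKM of Spp2 (horizontal) against Cltrn (left) and Apcs (right), 1 point per animal, vehicle in blue and MaR1 in orange. The values go up together (r = 0.919 and 0.879 on the log2 scale), with RB037 and RB038 at the low end.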

How the data were processed

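Per the submitters' processing notes the tools were fastp (version not given), HISAT2 2.0.5, StringTie 1.3.3b and featureCounts 1.5.0-p3; the genome build and strandedness are not given in the sources used here. The authors deposited FPKM per gene and library, with gene lengths in the file. FPKM times gene length was a whole multiple (tolerance 0.01) of the smallest such value of its library in 100% of the 371175 nonzero values; that unit was taken as 1 fragment, so fragment counts and exact Poisson intervals (95%) could be computed. Values were tested as log2(FPKM + 0.5), genes with a mean of at least 1 FPKM, with limma 3.58.1 in R 4.3.3 (variance trend, two-sided, Benjamini-Hochberg, threshold 0.05), each organ alone; steps were tested on simulated data. Heart differences of members carry unmoderated standard errors of the linear fit and no p. Correlations used 100000 permutations (two-sided; scipy 1.17.1), and figures matplotlib 3.10.9. Titles give the animal number that pairs the organs; treatment was compared between animals. The block model used statmod 1.5.0 (correlation 0.0621 between organs of an animal).

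Members and lists were chosen with earlier results of these data known. Named genes were the 5 members, the 5 named genes most like Kap and Miox in hearts, list genes with a heart mean of at least 1 FPKM (at most 8 per list, in order of that mean), the 5 highest and 5 lowest kidney-high transcripts by heart share, and the pathway list. Slc7a13, Apoa1 and Avpr2 were added after their values were seen. A few genes covered by it were left out of the text. Alternatives were pseudocounts 0.1 and 1, no filter or 5 FPKM, quantile scaling, voom, joint models, each animal left out, the mean of all kidneys as denominator and, added after seeing the data, fragments scaled to their sum per library.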

Additional observations from a re-analysis of the deposited data

Results flagged for a closer look

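Of 20 groups of 5 values (5 members, 2 organs, 2 treatments), 1 had a library far from the others for its range, and chance marks about 1 in 20 such groups. Spp2 in MaR1 hearts stood at 0.431 FPKM in RB035, against 1.38 to 1.60 FPKM in the other MaR1 hearts.

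For Miox, each of the 5 MaR1 hearts lay above the vehicle heart mean, and each of the 5 MaR1 kidneys lay below the vehicle kidney mean. The kidney difference itself was -0.02 on the log2 scale (limma adjusted p = 0.994), and its sign changed under some alternatives. The heart difference exceeded the kidney difference by 1.44 on the log2 scale; this difference was not tested, and the heart values had chosen the gene.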

How the results depend on the processing

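In hearts, 0 genes passed as reported (limma) and under all alternatives run. In kidneys, the count of 0 became 6 in the joint model with the replicate block, 7 in the joint model without it, and 0 to 1 when 1 animal was left out (1 without RB035); the cause was not tested. No member passed in any kidney fit, with adjusted p-values from 0.110 (Apcs, without RB039) upward. The kidney difference of Miox, -0.024 on the log2 scale, became 0.025 with quantile scaling and, over the fits that lack 1 animal, lay between -0.22 (RB030 removed) and 0.083 (RB031 removed). With fragments scaled to their sum per library, chosen after seeing the data, 0 genes passed in either organ. All heart differences of members stayed positive under the alternatives run. Those of the lowest genes depend on the pseudocount: Spp2, at 1.51, became 2.75 with 0.1, 1.01 with 1 and 3.54 with voom, and Apcs, at 0.86, became 1.82 with 0.1, 0.54 with 1 and 2.67 with voom. Leaving out 1 animal put Kap between 2.24 (without RB036) and 3.13 (without RB035) and Cltrn between 1.66 and 2.47. Filter settings gave no further heart values for members, whose differences were computed without a filter. Depth limits Spp2 and Apcs in vehicle hearts, with at most 7 fragments each.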
